A study of Mus musculus with 12 samples.

Results

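The genes described here form the negative and positive limbs of the mammalian circadian clock. They are Per1, Per2 and Per3, Cry1 and Cry2, the casein kinases Csnk1d and Csnk1e, and the activators Arntl (also called Bmal1), Clock and Npas2. The 10 genes were listed by name as parts of the clock, with earlier results of these data known. Each was read from the probeset whose only annotated gene it is, or from the brightest where there were several. Of the 10 listed genes 9 were measured, each by 1 probeset, among 22181 named genes and 41345 probesets. Per2 had no probeset of its own in the annotation, because its probeset is also listed for 9830107B12Rik. It was named through the study's supplementary list of probesets. That list gives the study's results on these same arrays, and no other member was named through it, so Per2 entered by a different rule. The only probeset of Csnk1d also names Slc16a3, so no value is given for Csnk1d. Further probesets of Cry2 (shared with D930015M05Rik) and Csnk1e (shared with Gm16059) were not used. The members include genes that the study itself picked out from these arrays, so their number past a threshold is not independent evidence.

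The tissue was nucleus accumbens (NAC), a part of the ventral striatum that serves reward and motivation. It was punched, core and shell together, from adult female outbred hsd:ICR mice, and each of the 12 arrays was hybridised with the RNA of 1 mouse. The 6 maternal mice were lactating, had mated and given birth, and were taken on postpartum day 7 with litters standardized to 11 pups. The 6 virgin mice were age-matched, had been housed with other females while the others were with males, and were in diestrus. All were housed singly after that period and were collected in the light phase, each virgin mouse on the same day as a maternal one, with dissections alternated between groups. The comparison therefore covers mating, pregnancy, birth and lactation together, and it samples a single part of the day, so that a changed level and a shifted rhythm cannot be told apart.

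In the clock of mouse cells, a dimer of ARNTL with CLOCK or NPAS2 binds E-box sequences and switches on the Per and Cry genes. PER and CRY proteins enter the nucleus together and inhibit that dimer, and casein kinases phosphorylate PER proteins and so set how long they last. Per1 and Per2 are also switched on acutely by neuronal activity and by glucocorticoids, and NPAS2 is the partner of ARNTL that is most abundant in forebrain.

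Promoter sequence was examined because the members are both parts and targets of this loop. RefSeq windows (GRCm38.p6, from 250 bases before to 50 after a start site) were held for 8 of the 10 members, with 15 windows in all. Of the members past the study's wider threshold below, 3 had a window, and their sequences are printed to show which of them carry E-box letters near a start site. Capitals mark the E-box CACGTG and its variant, searched as CACGTT on both strands and so also written AACGTG. The printed Per1 window lies at chr11:69098699-69098998 on the plus strand, the Cry1 window at chr10:85185005-85185304 on the minus strand and the Npas2 window at chr1:39194022-39194321 on the plus strand. Per1 had another window, at chr11:69099902-69100201 on the plus strand, which held neither form and is not printed.
Per1: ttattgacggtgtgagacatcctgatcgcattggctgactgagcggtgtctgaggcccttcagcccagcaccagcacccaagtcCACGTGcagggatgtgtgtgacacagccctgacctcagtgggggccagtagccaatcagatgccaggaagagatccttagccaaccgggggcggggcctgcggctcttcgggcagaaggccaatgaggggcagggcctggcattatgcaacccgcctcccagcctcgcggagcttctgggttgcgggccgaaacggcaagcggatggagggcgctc
Cry1: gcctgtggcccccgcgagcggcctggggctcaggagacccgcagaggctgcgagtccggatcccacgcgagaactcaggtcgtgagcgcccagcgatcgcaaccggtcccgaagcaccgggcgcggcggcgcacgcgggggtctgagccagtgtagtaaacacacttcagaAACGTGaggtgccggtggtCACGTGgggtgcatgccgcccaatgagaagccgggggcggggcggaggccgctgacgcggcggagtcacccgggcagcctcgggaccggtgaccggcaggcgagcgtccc
Npas2: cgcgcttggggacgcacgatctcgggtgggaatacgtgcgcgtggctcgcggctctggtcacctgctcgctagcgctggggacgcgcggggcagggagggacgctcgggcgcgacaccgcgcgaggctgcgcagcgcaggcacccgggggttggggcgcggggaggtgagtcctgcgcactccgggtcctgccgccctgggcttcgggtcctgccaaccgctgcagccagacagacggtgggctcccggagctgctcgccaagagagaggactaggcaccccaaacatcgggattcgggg
The printed Per1 window held CACGTG at position -166 from the start site. The Cry1 window held AACGTG at -79 and CACGTG at -60. The single Npas2 window held neither. Of 32851 windows over all genes 7.15% held CACGTG and 4.68% the variant, so a match is a description of the letters and no evidence of binding. Among the other members, Cry2 held AACGTG at -166, and Per3 held the D-box TTATGTAA at -205 and -158, which 0.938% of windows hold. A second window of Arntl held the ROR element TAGGTCA at position 30 after the start, which 2.61% of windows hold. No window of Csnk1e or Clock, nor the other window of Per1 or of Arntl, held any of these letters. The cAMP response element TGACGTCA was in none of the 15 windows and in 1.79% of all.

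Values are PLIER intensities, a brightness per probeset that the authors normalized between arrays, and they were compared as log2 values with limma. A gene is called higher or lower here at an unadjusted limma p under 0.01, the study's threshold, and the study's wider threshold of 0.03 is given beside it. The median intensity of an array was between 153.0 and 164.98, and the 12 arrays correlated with each other at 0.976 to 0.990 (Spearman, over all probesets). The mean of each measured member lay above that of most probesets, between the 63.5 percentile for Cry1 and the 97.7 percentile for Npas2. Brightness of different probesets does not rank transcripts, so levels are compared only within a gene. Because NAC was measured in bulk, a change in the number of cells that express a gene and a change in RNA per cell cannot be told apart. The labels call the arrays biological replicates, and their number limits the precision of every value.

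Per2 was the 1 member that rose at the first threshold, by 1.34-fold (95% interval 1.23 to 1.48). On log2 intensities, Per1 and Cry1 were higher and Npas2 was lower in maternal NAC at the wider threshold only. Of 9 members 8 had a log2 fold change above 0, as had 45.7% of all probesets and 51.5% of those of above-median mean. The members' median was 0.09, against -0.01 over all probesets and 0.00 over probesets of above-median mean. The count of 1 of 9 at p under 0.01 stands beside 2.3% of all probesets called in either direction (1.24% higher and 1.06% lower), and beside 3.03% of those of above-median mean (1.97% higher). At p under 0.03, 3 members were higher and 1 was lower, where 2.83% of all probesets were higher and 2.9% were lower (4.26% and 2.93% of those of above-median mean). In either direction these shares were 5.73% of all probesets and 7.19% of those of above-median mean. The methods define fold change as a ratio of limma coefficients, which fits linear intensities better than log2 values. They do not name the scale, and the calls depend on it. Over all probesets, 1262 were under 0.01 on linear intensities and 951 on log2 values, and the study's own count lies close to the first. When linear intensities were fitted, 4 members (Per1, Per2, Cry1 and Csnk1e) were higher and 1 (Npas2) lower at p under 0.01, beside 1.93% and 1.12% of all probesets (3.05% in either direction). These 5 are also the members among the circadian rhythm genes that the study names from its list at p under 0.01. In the log2 fit, limma with Benjamini-Hochberg adjustment over all probesets gave 0 of 9 members and 0 of 41345 probesets an adjusted p under 0.05. At an unadjusted p under 0.05 there were 5 members and 3685 probesets.

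**Figure D1:**
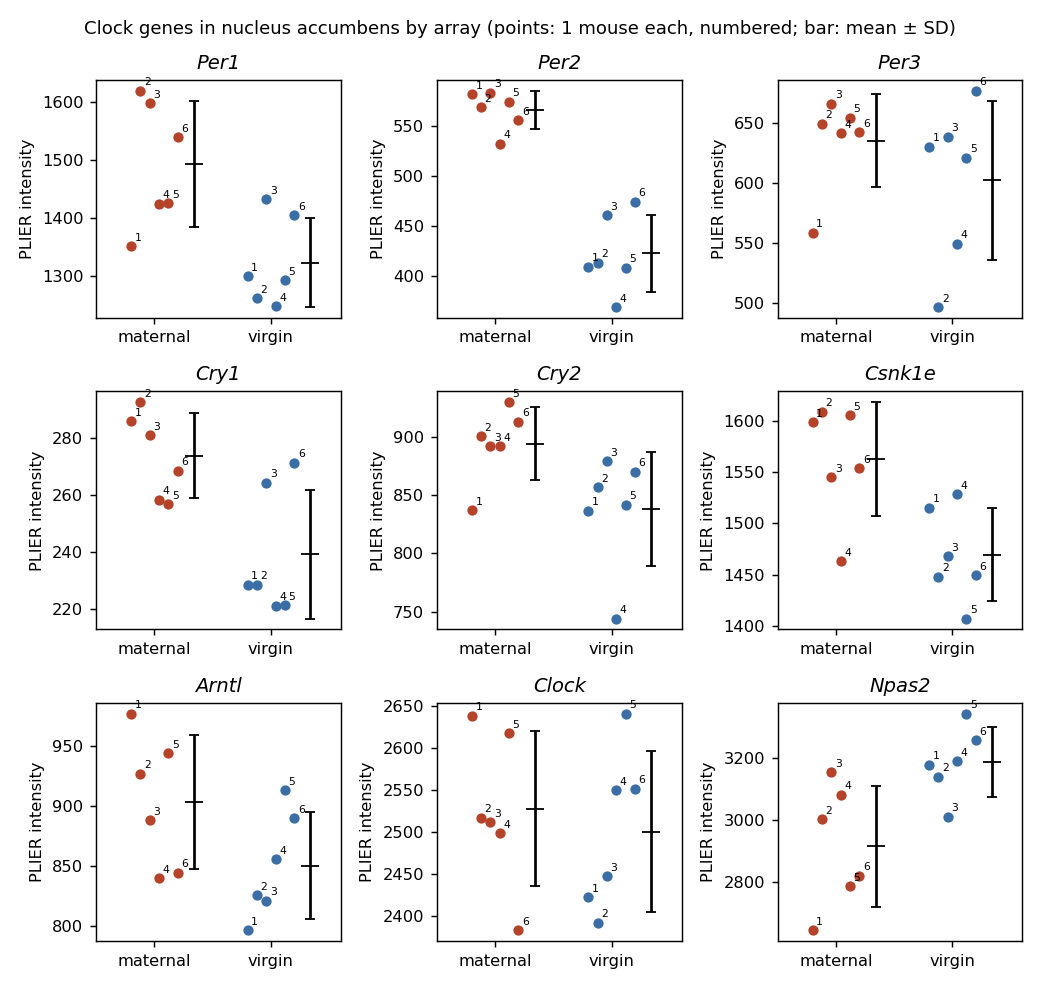
PLIER intensity (vertical axes, linear, not starting at 0) of each measured member in the 6 maternal arrays (left in each panel) and the 6 virgin arrays (right), with each point 1 mouse labelled by its replicate number and bars for mean ± SD. The groups separate completely for Per2, at 533 to 584 in maternal and 369 to 475 in virgin arrays, and overlap for the other 8 genes.

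Among the PER genes, which encode the inhibitors that accumulate in each cycle, Per2 had intensities of 582, 569, 584, 533, 575 and 556 in maternal replicates 1 to 6, against 410, 413, 461, 369, 408 and 475 in virgin replicates 1 to 6. Every maternal array lay above every virgin array, which was so for 0.532% of all probesets. The means were 567 ± 19.5 in maternal and 423 ± 38.8 in virgin NAC (SD, n = 6 each). The log2 fold change of Per2 was 0.43 (SE, the standard error, 0.06, limma p = 1.63e-05, adjusted p = 0.106, two-sided exact permutation p = 0.00216). Its limma p was number 2 among all probesets in ascending order, and its exact p was the smallest that 924 splits of 12 arrays can give. On linear intensities the limma adjusted p of Per2 was 0.0259, which put it among 10 probesets (0.0242% of all) under 0.05.
Per1, the PER gene best known for its rapid response to stimuli, had intensities of 1351, 1620, 1598, 1424, 1425 and 1539 in maternal replicates 1 to 6, against 1299, 1261, 1432, 1248, 1292 and 1404 in virgin replicates 1 to 6. All 6 maternal arrays exceeded the virgin median of 1296, and 3 exceeded every virgin array, so the groups overlapped. The log2 fold change of Per1 was 0.17 (SE 0.06, 95% interval 0.04 to 0.30, limma p = 0.0124, adjusted p = 0.442, exact permutation p = 0.0152). On linear intensities Per1 passed the first threshold, and without maternal replicate 2 or 3 it did not pass the wider one (log2 fold change at least 0.15 with any array left out).
Per3, the family member that the mouse clock needs least, had a lowest, median and highest intensity of 558, 646 and 666 in maternal arrays and of 496, 626 and 677 in virgin arrays. The 2 ranges lay almost on top of each other. Its log2 fold change was 0.08 (95% interval -0.09 to 0.25, limma p = 0.306, exact permutation p = 0.275), so a rise as large as that of Per2 lay outside its interval. Without virgin replicate 2 its log2 fold change was 0.03.

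The cryptochromes are the stronger repressors of the ARNTL dimer. Cry1 had intensities of 286, 293, 281, 258, 257 and 269 in maternal replicates 1 to 6, against 228, 228, 264, 221, 221 and 271 in virgin replicates 1 to 6. In 4 virgin arrays Cry1 was at 221 to 228, below every maternal array, while virgin replicates 3 and 6 lay among the maternal values. The log2 fold change of Cry1 was 0.20 (SE 0.07, 95% interval 0.06 to 0.34, limma p = 0.0105, adjusted p = 0.437, exact permutation p = 0.0195). On linear intensities Cry1 passed the first threshold too, and it stayed past the wider one whichever of the 12 arrays was left out.
Cry2 had a lowest, median and highest intensity of 837, 896 and 930 in maternal arrays and of 744, 849 and 879 in virgin arrays. Of the maternal arrays 5 lay above every virgin array, and the lowest, replicate 1, lay level with the second-lowest virgin value. The log2 fold change of Cry2 was 0.09 (95% interval -0.01 to 0.20), with a limma p of 0.0779 and an exact permutation p of 0.0238. Without virgin replicate 4, the lowest of the 12 arrays, it was 0.06.

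Csnk1e, a kinase of PER proteins, had a lowest, median and highest intensity of 1463, 1576 and 1609 in maternal arrays and of 1407, 1459 and 1529 in virgin arrays. As with Cry2, 5 maternal arrays lay above all virgin arrays, and here the exception was maternal replicate 4. The log2 fold change of Csnk1e was 0.09 (SE 0.04, limma p = 0.0493, exact permutation p = 0.0130). Like Per1, Cry1 and Npas2, it passed the first threshold when linear intensities were fitted.

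Of the activators, Npas2 was lower at the wider threshold, and Arntl and Clock passed neither. Npas2 was the 1 member with a negative log2 fold change, at intensities of 2646, 3003, 3155, 3082, 2787 and 2821 in maternal replicates 1 to 6, against 3179, 3140, 3011, 3190, 3343 and 3258 in virgin replicates 1 to 6. All 6 maternal arrays were below the virgin median of 3185, and 4 were below every virgin array. The log2 fold change of Npas2 was -0.13 (SE 0.05, 95% interval -0.24 to -0.02, limma p = 0.0267, adjusted p = 0.511, exact permutation p = 0.0173). The call of Npas2 at the wider threshold was kept without maternal replicate 3 or 4 or virgin replicate 3 and lost when any of the other 9 arrays was left out, at log2 fold changes of -0.15 to -0.10. It was also lost after median centring (-0.10), where 4 members were higher and 0 lower at that threshold, and with array weights (-0.12).
Arntl, the partner shared by CLOCK and NPAS2, had a lowest, median and highest intensity of 839, 907 and 977 in maternal arrays and of 796, 840 and 913 in virgin arrays. Its log2 fold change was 0.09 (95% interval -0.03 to 0.20, limma p = 0.131, exact permutation p = 0.0952). Clock had the same values as 2383, 2514 and 2638 in maternal arrays and 2392, 2498 and 2641 in virgin arrays, a nearly complete overlap. Its log2 fold change was 0.02 (95% interval -0.08 to 0.11, limma p = 0.717, exact permutation p = 0.602). After quantile normalization it was -0.00087, and with 1 array left out it lay between 0.00 and 0.03.

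**Figure D2:**
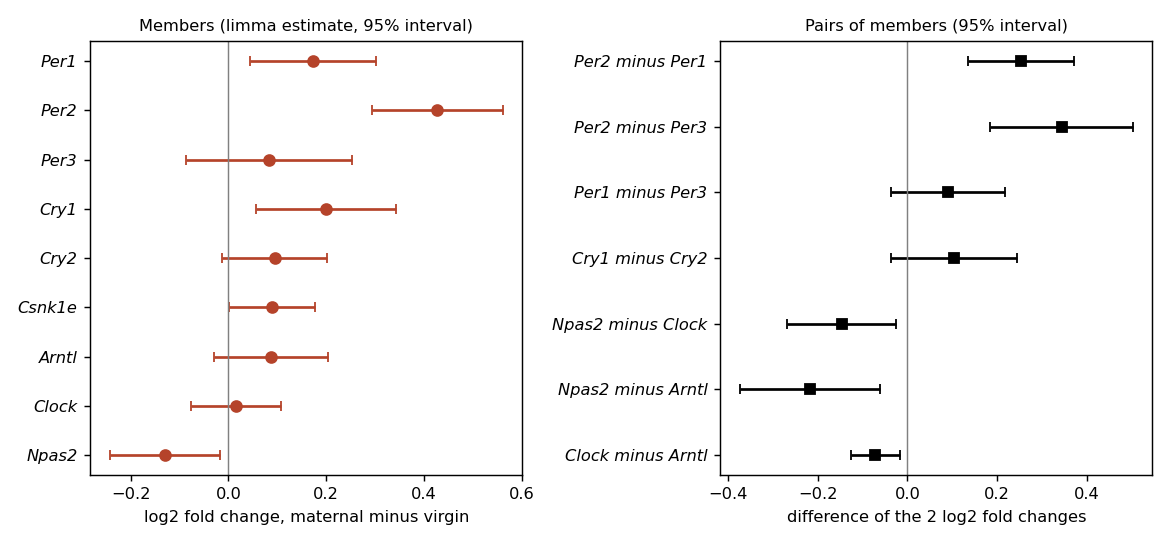
Left, the limma log2 fold change (maternal minus virgin, horizontal axis) of each measured member with its 95% interval, and right, the difference between the log2 fold changes of pairs of members with its 95% interval. Per2 stands apart at 0.43, and the intervals of Per2 minus Per1 (0.14 to 0.37) and Npas2 minus Arntl (-0.37 to -0.06) do not reach 0.

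Whether members of the same limb differed in their response was tested within arrays, as the difference of their log2 values compared between groups. The pair of Csnk1e and Csnk1d could not be formed, so 7 of 8 planned pairs were tested, by exact two-sided permutation with Benjamini-Hochberg adjustment over the 7. Per2 differed from both of its paralogs. Its log2 fold change was 0.25 larger than that of Per1 (95% interval 0.14 to 0.37, exact p = 0.00216, adjusted p = 0.0152) and 0.34 larger than that of Per3 (0.19 to 0.50, exact p = 0.00433, adjusted p = 0.0152). Per1 and Per3 differed by 0.09 (-0.04 to 0.22, exact p = 0.152), and Cry1 and Cry2 by 0.11 (-0.04 to 0.25, exact p = 0.128), intervals that admit both 0 and a sizeable gap.
Among the activators, the log2 fold change of Npas2 was 0.22 below that of Arntl (difference -0.22, 95% interval -0.37 to -0.06, exact p = 0.00866, adjusted p = 0.0189). It was 0.15 below that of Clock (difference -0.15, -0.27 to -0.02, exact p = 0.0108, adjusted p = 0.0189). Clock minus Arntl was -0.07 (-0.13 to -0.02, exact p = 0.0216, adjusted p = 0.0303), the smallest of the 5 differences that passed. That last call was lost when maternal replicate 1, 2 or 5 or virgin replicate 1, 3 or 4 was left out (adjusted p 0.0545 to 0.0606 by exact permutation), and after quantile normalization.

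**Figure D3:**
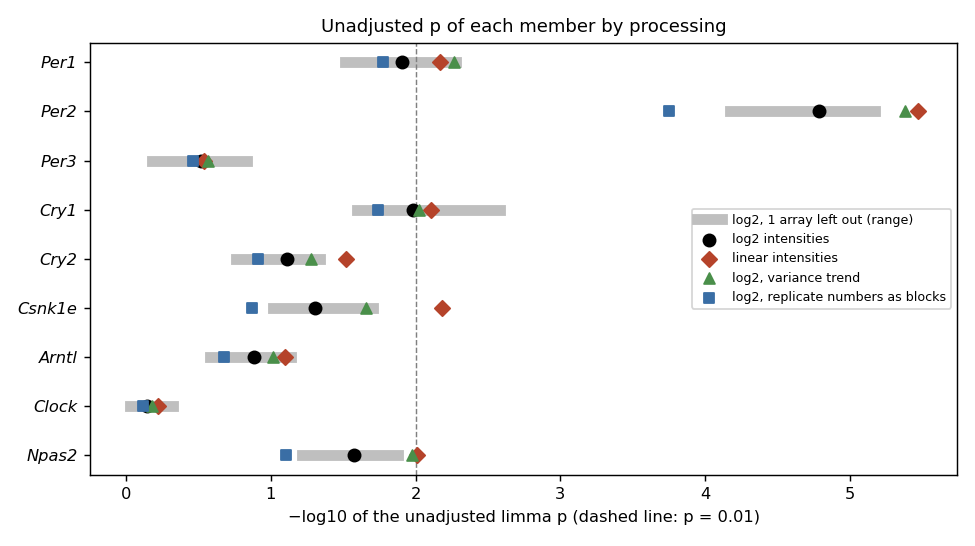
Unadjusted limma p of each measured member (horizontal axis, -log10 scale, dashed line at 0.01) on log2 intensities, on linear intensities, with a variance trend and with replicate numbers as blocks, with a grey bar for the range when 1 array is left out. Per2 is past the line in every setting shown, Per1 and Cry1 lie on either side of it, and Csnk1e and Npas2 pass it on linear intensities only.

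The call of Per2 at the first threshold held in all 21 alternative settings, with a log2 fold change between 0.39 and 0.46. Cry1 passed it in 9 of 21 and Per1 in 7, against 1 of 21 each for Csnk1e and Npas2, and none of the 21 for Per3, Cry2, Arntl and Clock. Leaving out virgin replicate 3 brought both Per1 (log2 fold change 0.20) and Cry1 (0.23) past it, and so raised the count of members to 3. Leaving out maternal replicate 1 brought Per1 past it, and leaving out virgin replicate 6 or maternal replicate 5 brought Cry1 past it, for a count of 2 each time.

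The members varied together within groups to different degrees. Over 36 pairs of members, the correlation of log2 values across the 12 arrays after removal of the group means lay between -0.50 and 0.88. Arntl and Clock were the pair that passed adjustment over the 36 (Pearson r = 0.88, permutation p = 0.00045, adjusted p = 0.016, and Spearman rho = 0.89, permutation p = 0.00047). Within maternal arrays r was 0.86 (exact permutation p = 0.0222, adjusted p = 0.41). Within virgin arrays r was 0.92 (exact permutation p = 0.0181, adjusted p = 0.16). Without the 2 arrays farthest from the median of Arntl, r was 0.80.
Per2 and Cry1 came next (r = 0.85, permutation p = 0.0030, adjusted p = 0.053, and rho = 0.83, permutation p = 0.0054). Within the maternal group r was 0.56 (exact permutation p = 0.253) and within the virgin group 0.93 (exact permutation p = 0.00278, adjusted p = 0.10). Virgin replicates 3 and 6 were the highest virgin arrays for Per1, Per2, Per3, Cry1 and Cry2 alike. Without the 2 arrays of each group farthest from its Per2 median, r of Per2 and Cry1 was -0.02 in maternal and 0.64 in virgin arrays. Such trimming goes by 1 gene of the pair, narrows the range of that gene and leaves few arrays.
Per1 and Per2 had r = 0.56 over all 12 arrays (permutation p = 0.039, adjusted p = 0.28, and rho = 0.52, permutation p = 0.087). Within maternal arrays r was 0.11 (exact permutation p = 0.85), and within virgin arrays it was 0.92 (exact permutation p = 0.0153, adjusted p = 0.16). Without the 2 arrays of each group farthest from its Per1 median, these became 0.54 in maternal and 0.68 in virgin arrays. Whether these correlations differ between the groups was not tested.

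**Figure D4:**
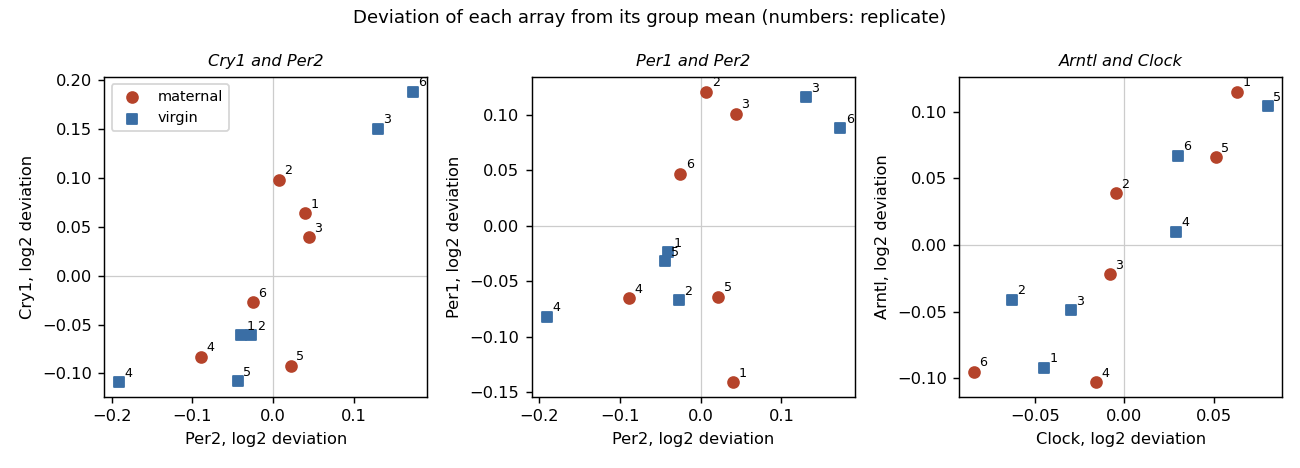
Log2 deviation of each array from the mean of its own group for Cry1 against Per2, Per1 against Per2 and Arntl against Clock (maternal circles, virgin squares, numbers giving the replicate). Virgin replicates 3 and 6 are at the upper right for Per2 with Cry1 and with Per1, while Arntl and Clock lie along a line in both groups (r = 0.86 maternal, 0.92 virgin).

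Among 13309 named genes of above-median mean, those whose arrays followed a member most closely after removal of the group means (Pearson r, 12 arrays) were listed without reference to function. For Per2 they were Cggbp1 (r = 0.96), Jrkl (0.91) and Gm527 (0.90). For Per1 they were Gtpbp1 (0.92), Mapk14 (0.92) and Pde2a (0.92), and for Cry1 Exosc8 (0.93), Triap1 (0.90) and Pmpcb (0.90). For Npas2 they were Traf6 (0.89), Exoc4 (0.89) and Gtf2h3 (0.86). The closest gene to Arntl was another member, Clock (0.88), followed by Frrs1l (0.87) and Efcab5 (0.87). No p is given for these values, which are the extremes of a large search, and by limma none of the 15 genes differed between maternal and virgin NAC at p under 0.01, while Efcab5 passed the wider threshold (log2 fold change 0.17).

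Of 25 other clock genes listed, 22 were measured. The first threshold was passed by 2 of them, both lower in maternal NAC, and the wider one by 3, of which 1 was higher. Beside these stand 2.3% of all probesets in either direction and 1.06% lower at the first threshold, and 5.73% and 2.9% at the wider one. Of the 22, 13 had a log2 fold change above 0, and their median was 0.01. Nr1d1, which encodes the repressor REV-ERB alpha of Arntl, Clock and Npas2, fell to an intensity of 1980 ± 142 in maternal NAC, against 2481 ± 200 in virgin NAC (SD, n = 6 each). The change was -0.32 on the log2 scale (SE 0.07, limma p = 0.000406, adjusted p = 0.271, exact permutation p = 0.00216). Of the targets named here, Npas2 was lower at the wider threshold only, and Arntl and Clock passed neither. Other targets of REV-ERB alpha were not listed, and the part of Nr1d1 in the difference of any member was not tested.
Cipc, an inhibitor of the CLOCK and ARNTL dimer, was 1061 ± 32.1 in maternal and 1148 ± 23.4 in virgin NAC (SD, n = 6 each), which differ by -0.11 on the log2 scale (SE 0.04, limma p = 0.00959, adjusted p = 0.431, exact permutation p = 0.00216). That call was lost whichever array was left out (log2 fold change -0.12 to -0.10), but all 12 of these fits stayed past the wider threshold. After median centring (-0.08) and with the replicate block Cipc passed neither threshold. The call at the first threshold held in 5 of 21 alternative settings, among them linear intensities, quantile normalization (-0.14) and a variance trend.
The list of 11 regulators of PER and CRY protein had 9 measured members and 0 calls at either threshold. Its lowest limma p values were for Fbxl21, an F-box gene (log2 fold change -0.17, exact permutation p = 0.0887), and Csnk2a2, a catalytic subunit of casein kinase 2 (0.08, exact permutation p = 0.0281). In the second loop, 5 of 6 genes were measured and Nr1d1 was called. The next in limma p were Nfil3, a repressor at D-boxes (0.16, exact permutation p = 0.0606), and Rora, an activator of Arntl (-0.09, exact permutation p = 0.108). All 8 outputs and side regulators were measured. Beside Cipc, Arntl2, a paralog of Arntl, was higher at the wider threshold only (0.25, SE 0.10, limma p = 0.0239, exact permutation p = 0.0411), and Ciart, a repressor of the CLOCK dimer, had -0.29 (exact permutation p = 0.0823), and -0.17 without maternal replicate 1. Arntl2 lost that call without maternal replicate 1, 2, 3 or 5 or virgin replicate 1, 3 or 5 (log2 fold change 0.21 to 0.30 over the 12 arrays left out).

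**Figure D5:**
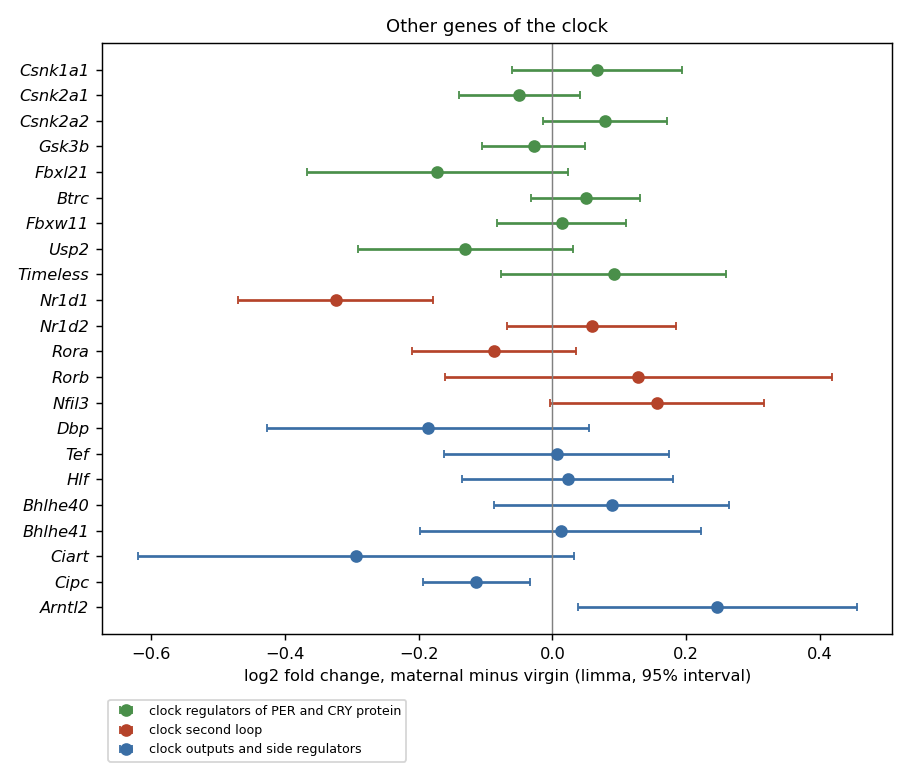
Limma log2 fold change (maternal minus virgin, horizontal axis) with its 95% interval for the 22 measured clock genes outside the PER, CRY, casein kinase 1 and activator group, coloured by list. Nr1d1 (-0.32) and Cipc (-0.11) are lower at p under 0.01, and the interval of Arntl2 (0.04 to 0.46) also lies away from 0.

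The tissue label was checked against markers of medium spiny neurons, the projection neurons of NAC, of which 10 of 12 were measured. None was near 0, with mean intensities that included 3002 in maternal and 3235 in virgin NAC for Drd2, and 6196 in maternal and 7242 in virgin NAC for Penk. All 10 had a negative log2 fold change (median -0.18), with 1 lower at p under 0.01 (Rgs9) and 4 at p under 0.03. Of all probesets 45.7% had a value above 0, 1.06% were lower at p under 0.01 and 2.9% at p under 0.03. The level of the markers per array, as a mean log2 deviation from the 12 arrays, ran from -0.31 to 0.09 in maternal and from -0.06 to 0.18 in virgin arrays. The lowest values were in maternal replicates 1 (-0.31), 5 (-0.28) and 6 (-0.16), which were also the 3 lowest arrays for Npas2, and the part of these markers in the Npas2 difference was not tested.
For other cells the same score differed between groups (maternal minus virgin) by 0.04 for 7 astrocyte markers, -0.09 for 7 oligodendrocyte, -0.01 for 6 microglia and 0.00 for 6 endothelial markers. It differed by 0.09 for 5 cortical excitatory, 0.10 for 7 interneuron and -0.12 for 6 choroid plexus and ependymal markers, and for each of these lists the ranges of the groups overlapped. Single markers in these lists moved further than the list means. Calb2, the calretinin of interneurons, was 777 ± 164 in maternal and 515 ± 77.8 in virgin NAC (SD, n = 6 each), a difference of 0.58 on the log2 scale (exact permutation p = 0.00433), and passed the first threshold. Opalin, a myelin protein, was lower at the same threshold, with a difference of -0.47 (exact permutation p = 0.0173). At the wider threshold the microglial gene P2ry12 (-0.23) was lower, the endothelial receptor gene Flt1 (0.16) was higher and the cortical gene Cux2 (-0.15) was lower. The other cortical markers Slc17a7 (0.11), Neurod6 (0.30), Tbr1 (0.21) and Fezf2 (-0.03) passed neither. The part of these cells in the Per2 difference was not tested.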

How the data were processed

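Total RNA of each mouse (200 ng labelled) was hybridised to a GeneChip Mouse Gene 2.0 ST array. The authors summarized probes with PLIER (Affymetrix Power Tools 1.12.0 in the submitters' notes, Expression Console in the methods) and the deposited values are normalized intensities on a linear scale. Intensities were raised to a floor of 1, which 914 probesets needed in some array, and converted to log2, so folds of very dim probesets are understated. Groups came from the labels. All 41345 probesets entered the fit (limma version 3.58.1, R version 4.3.3, lmFit and eBayes), at unadjusted p under 0.01 and 0.03 as in the methods, with Benjamini-Hochberg adjustment over all probesets. The methods do not name the scale. Their fold change, a ratio of limma coefficients, fits linear intensities, which are an alternative here. Single genes and paralog differences were tested by exact permutation, correlations by 100000 permutations, exact within a group.

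The annotation gives 1 gene for 23521 probesets, several for 1820 and none listed for 16004. The fold changes and p-values in the study's supplementary list were not used. Members and lists were chosen with earlier results of these data known. Named were all members, other clock genes with p under 0.01 and at most 2 more per list, and the 3 genes most alike to each of Per1, Per2, Cry1, Arntl and Npas2. Markers were named after their values were seen. Alternatives were other normalizations, scale, filter, variance models, the replicate number as a block, and each array left out. Promoter windows came from RefSeq tables, searched on both strands with Python 3.11.15.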

Additional observations from a re-analysis of the deposited data

Results flagged for a closer look

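Of the 18 sets of 6 arrays tested (9 members in each group), 2 held a value far from the other 5 by Dixon's criterion, where chance flags about 1 in 20 sets. Per3 was lowest in maternal replicate 1, at an intensity of 558.42, with a gap to the next array of 0.785 of the group's range, and without that array the log2 fold change of Per3 was 0.12. Cry2 was lowest in virgin replicate 4, at 744.17, with a gap of 0.703 of the range, and without that array the log2 fold change of Cry2 was 0.06. Virgin replicate 4 was also the lowest virgin array for Per1, Per2 and Cry1.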

How the results depend on the processing

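Each measured member was recomputed under 21 alternatives. No member changed its call at p under 0.01 downwards, and a change of sign occurred for Clock alone, which was near 0 throughout. The count of members at p under 0.01 (1 as reported) was 2 after quantile normalization, 3 after median centring, 5 on linear intensities, and 3 each with probesets above the median only, with a variance trend and with array weights. It was 1 to 3 when 1 array was left out (3 without virgin replicate 3, 2 without virgin replicate 6 or maternal replicate 1 or 5). At p under 0.03 the count was 4, and 2 to 5 with 1 array left out, where 2 was the count without maternal replicate 2 (Per1 and Npas2 lost). At that threshold it was 4 higher and 0 lower after median centring, and 3 higher and 0 lower with array weights (Npas2 lost in both). The share of all probesets at p under 0.03 is not given for these settings. At p under 0.01 median centring also gave more probesets higher (856) than lower (207) over the whole array. The other clock genes called (2 as reported) were 1 after median centring, with log2 of the intensity plus 16, with array weights and with the replicate block, and 1 to 2 with 1 array left out. The second gene was Nfil3 without virgin replicate 2 and Arntl2 without virgin replicate 4, and Nr1d1 passed in all 21. Over all 41345 probesets the count at p under 0.01 was 951 (511 higher, 440 lower), and 713 to 1178 with 1 array left out. It was 947 after quantile normalization, 1063 after median centring (856 higher, 207 lower) and 1262 on linear intensities (797 higher, 465 lower). With a variance trend it was 1105 (666 higher, 439 lower), and with array weights 1129. With probesets above the median only it was 851 of 20672 (547 higher, 304 lower). The median log2 fold change of all probesets was -0.01, against 0.02 after median centring. The labels number the replicates of both groups, but arrays of the same number did not deviate together (r -0.111 to 0.067, with 4 of 12 arrays closest to their own number). With the replicate number as a block 1 member (Per2) was under 0.01 and 3 (Per1, Per2 and Cry1) were under 0.03, with 652 probesets under 0.01. Of the 7 paralog differences 5 passed, 4 to 6 with 1 array left out (Per1 minus Per3 added without virgin replicate 2), and 0 under the block, where 6 pairs of arrays give no exact p below 0.0312. Per2 minus Per1, Per2 minus Per3, Npas2 minus Arntl and Clock minus Arntl were at that lowest exact p (adjusted p = 0.0547). The count under the block is thus limited by the number of arrays. Each member has 1 probeset of its own, so the mean over several could not be computed, and the shared second probesets of Cry2 and Csnk1e were not used. The causes of these shifts were not tested. Intensities carry no count, so depth cannot be stated.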
